A study of Homo sapiens with 3 samples.

Results

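The 10 genes FOS, FOSB, JUN, JUNB, EGR1, ATF3, IER2, CYR61, CTGF and HSPA1A were followed as the immediate early, YAP-target and stress genes of chambered cardiac organoids (CCOs). They were chosen by name, as 10 of the 32738 genes of a merged UMI count table, and each had UMIs at every day. The CCOs were made from H7, a human embryonic stem cell line, and 1 droplet single-cell RNA library was made at each of day 8 (D8), day 14 (D14) and day 21 (D21). By the methods of the study, D8 fell 1 day after the differentiating cells had been dissociated and aggregated in Matrigel. From aggregation until D14 the CCOs grew in cardiosphere growth medium (CGM), which held thrombin, cardiotrophin-1, EGF, FGF-2, Wnt-3A and EDN1. D8 and D14 thus shared this medium, and afterwards the CCOs grew in a spinner flask in RPMI with B27. Since a day is a single library, its age, its medium or time in it and its library preparation cannot be told apart. No spread between replicates exists and the days were not tested against each other. Every library was made from cells that had been released with warm TrypLE, so levels held in the organoid and levels acquired during dissociation cannot be told apart either.

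Immediate early genes are transcribed within minutes of a stimulus, before any new protein is made. FOS, FOSB, JUN and JUNB encode subunits of the AP-1 transcription factor, EGR1 a zinc-finger transcription factor, IER2 a short-lived nuclear protein and ATF3 a stress-induced transcription factor. CYR61 (CCN1) and CTGF (CCN2) encode matricellular proteins and are standard targets of YAP, the mechanosensitive coactivator that binds DNA through TEAD factors. HSPA1A encodes the inducible chaperone HSP70, a target of heat shock factor. In the heart, these genes are known to respond to stretch, hypertrophic ligands and handling of the tissue.

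Exact matches to classic elements in a short stretch before the transcription start differed between the genes. Sites farther upstream or with other letters were not searched, so a gene without a match may still hold the element. RefSeq (GRCh38.p14) held the 250 bases before the start of 9 of the 10 genes, which were searched on both strands. The CArG box, the element of serum response factor, matched in 1 of the 9 genes, EGR1, against 1.14% of 27305 genes. The TEAD site (GGAATG) also matched in 1, CTGF, against 11.9% of all genes. The TATA box (TATAAA) matched in 5 of the 9, FOS, FOSB, JUNB, CTGF and HSPA1A, against 11.1%. The AP-1 site (TGANTCA), the cAMP response element (TGACGTCA) and the heat shock element (GAANNTTCNNGAA or TTCNNGAANNTTC) matched in 0 of the 9 in these windows, against 6.60%, 1.77% and 0.439% of all genes. Below, the windows of EGR1 (chr5:138465229-138465478, plus strand), CTGF (chr6:131951373-131951622, minus strand), FOS (chr14:75278578-75278827, plus strand) and HSPA1A (chr6:31815293-31815542, plus strand) are written 5′ to 3′, since EGR1 and CTGF hold the CArG boxes and TEAD sites and FOS and HSPA1A had opposite courses over the days, with matched motifs in capitals.
EGR1: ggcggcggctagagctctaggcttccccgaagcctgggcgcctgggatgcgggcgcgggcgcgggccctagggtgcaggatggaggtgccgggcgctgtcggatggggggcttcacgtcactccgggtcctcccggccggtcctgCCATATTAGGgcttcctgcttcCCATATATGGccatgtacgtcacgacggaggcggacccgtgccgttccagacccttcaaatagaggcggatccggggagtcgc
CTGF: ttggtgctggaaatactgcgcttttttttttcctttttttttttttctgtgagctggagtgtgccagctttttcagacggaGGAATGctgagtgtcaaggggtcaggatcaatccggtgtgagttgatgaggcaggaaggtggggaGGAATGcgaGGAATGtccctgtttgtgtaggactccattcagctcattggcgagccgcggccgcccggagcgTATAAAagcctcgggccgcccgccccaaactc
FOS: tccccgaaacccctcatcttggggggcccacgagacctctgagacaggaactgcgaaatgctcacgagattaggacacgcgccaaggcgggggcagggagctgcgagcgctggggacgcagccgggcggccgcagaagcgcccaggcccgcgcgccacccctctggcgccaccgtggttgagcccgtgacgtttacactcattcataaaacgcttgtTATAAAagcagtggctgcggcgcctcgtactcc
HSPA1A: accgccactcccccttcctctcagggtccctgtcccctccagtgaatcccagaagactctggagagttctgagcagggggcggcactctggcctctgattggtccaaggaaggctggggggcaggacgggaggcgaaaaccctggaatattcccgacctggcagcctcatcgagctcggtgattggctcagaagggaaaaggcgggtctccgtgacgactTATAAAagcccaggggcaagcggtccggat
The capitals in EGR1 are 2 CArG boxes, which began 105 and 83 bases before the start. In CTGF they are 3 TEAD sites, which began 169, 104 and 95 bases before it, and a TATA box at 32 bases. In FOS and HSPA1A they are TATA boxes at 33 and 30 bases. A match is a description of the letters and was not measured as bound.

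The table held 17327 barcodes, of which 8188 passed the limits of the study (over 2000 genes, below 7500 genes and under 10% mitochondrial UMIs). D8 contributed 2657 of these cells, D14 3585 and D21 1946, at median depths of 15316, 12282 and 14105.5 UMIs. The D21 library stood apart, since 47.8% of its barcodes were at or above the mitochondrial limit, against 6.62% at D8 and 10.7% at D14. Between 9 and 14 of the kept barcodes were shared by any pair of libraries. Levels are summed UMIs per 1000000 UMIs of the same cells (CPM) with exact Poisson 95% intervals, and ratios of days carry an exact 95% interval, all for counting error only. A gene was counted as past 2-fold where the ratio was at least 2-fold either way and its interval excluded no change. Cells that resembled cardiomyocytes (CM-like) were named from 8 markers, of which the main cluster of each day met 8, and numbered 485, 1131 and 551 on the 3 days. The 10 genes, the lists used beside them and the mitochondrial genes were kept out of the clustering. The median mitochondrial share of CM-like cells moved with day, from 2.81% at D8 to 5.03% at D14 and 8.40% at D21.

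Over all kept cells, 5 of the 10 genes were highest at D14, namely FOS, FOSB, JUNB, EGR1 and IER2, while HSPA1A was lowest there. FOS stood at 183, 456 and 189 CPM on D8, D14 and D21, from 8570, 22910 and 5833 UMIs. FOSB went from 14.0 to 78.3 and 42.2 CPM, and JUNB from 111 to 285 and 238 CPM. The FOS level of D14 was thus unlike both other days, whereas JUNB at D21 lay nearer to D14 than to D8. EGR1 was at 117, 211 and 179 CPM and IER2 at 179, 309 and 189 CPM. JUN hardly moved, with 157, 161 and 169 CPM, and was the AP-1 gene whose D14 level was not the highest. CYR61 was at 141, 130.0 and 104 CPM, CTGF at 95.4, 85.2 and 84.0 CPM, and ATF3 at 36.8, 30.5 and 31.7 CPM. The matricellular genes and ATF3 were therefore highest at D8, with small steps between days. HSPA1A was at 53.7, 9.81 and 23.3 CPM.

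From D8 to D14, 3 genes were past 2-fold higher over all cells (FOSB 5.59-fold, JUNB 2.56-fold, FOS 2.49-fold), where 8.95% of the 9105 genes tested were. HSPA1A was 5.47-fold lower, with a log2 ratio of -2.45 (-2.59 to -2.31), as 1 gene among the 1.63% of all genes that were past 2-fold lower. From D14 to D21, HSPA1A was 2.38-fold higher and FOS 2.42-fold lower, 1 gene each way, where 5.8% and 10.1% of 9333 genes were. Summed with its near-identical copy HSPA1B, HSPA1A was 1.65-fold higher (21.3 to 35.1 CPM), which is under 2-fold. Median-of-ratios scaling moved the median of all genes between D14 and D21 from -0.20 to 0.12 on the log2 scale, and FOS then stayed under 2-fold. In bulk sums of this kind, fewer cells of a type and less RNA per cell cannot be told apart, so the same levels were read within classes.

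**Figure D1:**
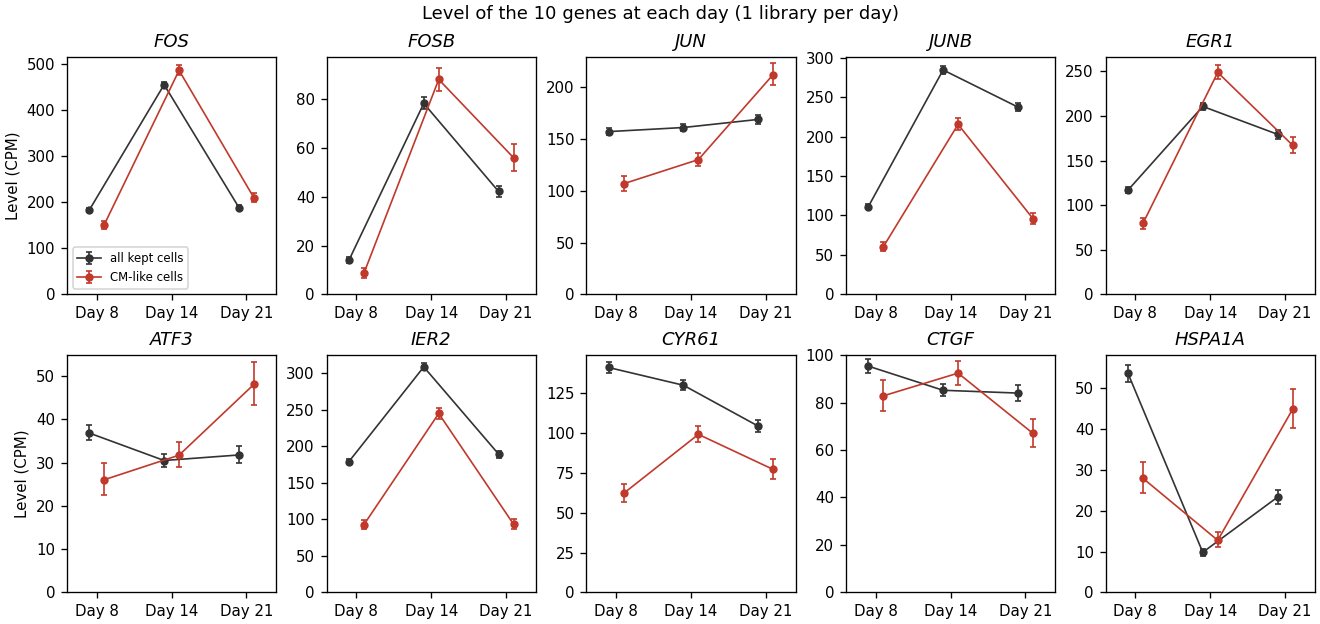
Level in CPM (vertical axis, from 0) of each of the 10 genes at D8, D14 and D21 for all kept cells (black) and CM-like cells (red), with exact Poisson 95% intervals. FOS, FOSB, JUNB, EGR1 and IER2 peak at D14 in both sets, JUN and ATF3 are highest at D21 in CM-like cells, and HSPA1A is lowest at D14.

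Within CM-like cells the same genes peaked at D14 and the contrast with D8 was wider. FOS had a D8 level of 152 CPM (143 to 160), a D14 level of 487 CPM (476 to 498) and a D21 level of 210.0 CPM (200 to 221). FOSB was at 8.63, 88.1 and 56.0 CPM, from 67, 1320 and 416 UMIs. No intervals of these genes overlapped between days, but they hold counting error and not the spread between cultures. JUNB was at 60.2, 216 and 96.1 CPM. EGR1 was at 79.5, 249 and 167 CPM, and IER2 at 92.8, 245 and 93.3 CPM, so that IER2 at D8 and D21 did not differ beyond counting error. JUN did not share this peak and was at 107, 130.1 and 212 CPM. Of the 4 AP-1 genes, JUN alone was thus highest at D21 in these cells.

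The stress genes followed other courses in CM-like cells, whereas CYR61 and CTGF were also highest at D14. ATF3 was at 26.0, 31.7 and 48.1 CPM on D8, D14 and D21. CYR61 was at 62.1, 99.2 and 77.1 CPM, and CTGF at 82.8, 92.4 and 67.0 CPM. These steps were all under 2-fold. HSPA1A was at 28.0 CPM (24.4 to 31.9), 12.7 CPM and 44.8 CPM (40.1 to 49.9), the D14 value from 191 UMIs, and was the gene with its highest CM-like level at D21 and its lowest at D14.

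From D8 to D14 in CM-like cells, 5 of the 10 genes were past 2-fold higher, where 10.4% of 9074 genes were. FOSB led with a log2 ratio of 3.35, or 10.2-fold, followed by JUNB at 1.84, FOS at 1.68 (1.60 to 1.77), EGR1 at 1.65 and IER2 at 1.40. HSPA1A was lower by a log2 ratio of -1.13 (-1.42 to -0.85), beside 2.22% of all genes. With no mitochondrial limit, 2 genes stayed past 2-fold higher, FOSB and EGR1, beside 12.7% of all genes. With all variable genes kept in the clustering 8 did, beside 10.6%. The clustering was run anew without the limit. Kept cells of D8 then numbered 2668 in place of 2657, but CM-like cells 985 in place of 485. The limit and the cells named CM-like thus changed together.

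From D14 to D21 in CM-like cells, FOS, JUNB and IER2 were past 2-fold lower, with log2 ratios of -1.21, -1.17 and -1.39, where 14.8% of 9144 genes were. HSPA1A was 3.52-fold higher (log2 ratio 1.81, 1.55 to 2.08), beside 5% of all genes. JUN was 1.63-fold higher (0.71, 0.61 to 0.80). With median-of-ratios or TMM scaling, which moved the median of all genes from -0.18 to 0.12 and 0.07, IER2 alone of the 3 stayed past 2-fold lower. The shares of all genes past 2-fold lower were then 10% and 10.7%. In cells chosen by CM marker UMIs rather than by cluster (the CM gate, defined further on), 0 genes were past 2-fold lower, beside 11.8% of all genes. The log2 ratios there were -0.93 for FOS, -0.77 for JUNB and -0.95 for IER2, while HSPA1A stayed higher at 1.68. Over 14 settings, FOS was past 2-fold lower in 8, JUNB in 9, IER2 in 13, and HSPA1A past 2-fold higher in 14. These leave out means of log-normalized values, with which 0 genes were past 2-fold higher.

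Because mitochondrial share moved with day, CM-like cells of 1 band of that share were also compared, per 1000000 nuclear-encoded UMIs. At 2% to 5%, with 241 cells of D8 and 422 of D14, FOS was at 169 and 594, FOSB at 8.32 and 108, and JUNB at 63.9 and 259, and the same 5 genes were past 2-fold higher (11.8% of 9232 genes). CTGF was past 2-fold lower in this band, from 134 to 49.4, together with HSPA1A (2.31% of all genes), but rested on 1 cell of D8, described below. At 5% to 10%, with 570 cells of D14 and 509 of D21, IER2 stayed past 2-fold lower (213 to 100.2) and was 1 gene beside 13.9% of 9337. FOS, at 455 and 228, lay just under 2-fold, and FOSB, at 74.3 and 61.9, was nearly level. JUN (109.9 to 229) and HSPA1A (12.9 to 49.1) were past 2-fold higher, beside 4.97% of all genes. The higher JUN and HSPA1A of D21 CM-like cells were therefore at least as large within the band as without it.

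**Figure D2:**
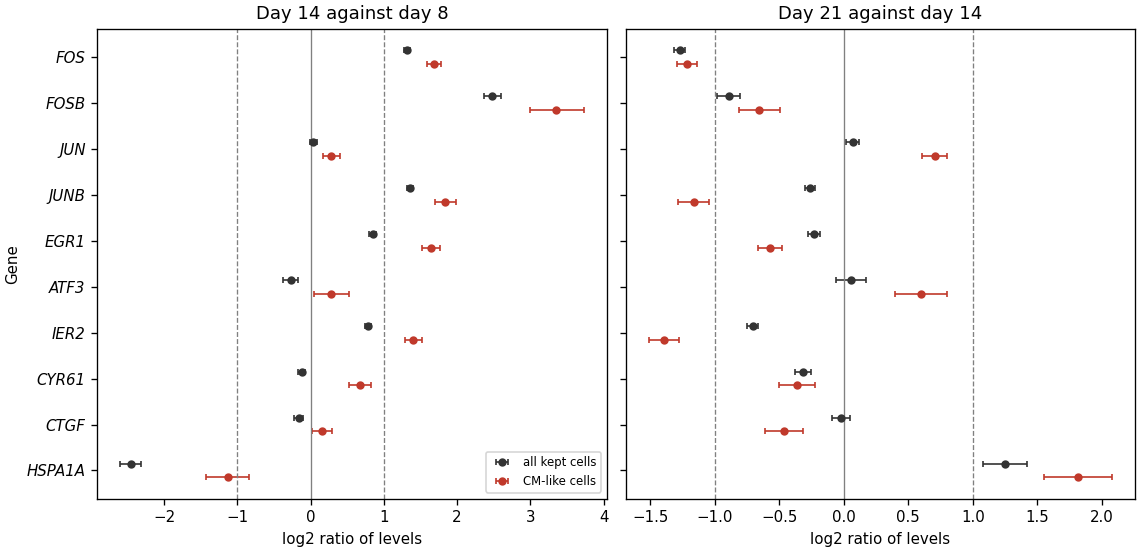
Log2 ratio of levels (horizontal axis) of D14 against D8 (left) and D21 against D14 (right) for each gene in all kept cells (black) and CM-like cells (red), with exact 95% intervals for counting error and dashed lines at 2-fold. In CM-like cells FOSB has the highest ratio on the left (3.35) and HSPA1A the highest on the right (1.81).

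Shares of cells with a UMI were taken after each cell had been thinned to 4000 UMIs. In CM-like cells, those of FOS, FOSB, EGR1 and HSPA1A moved in the same directions as their levels. CTGF did not, as its share was 8.25%, 13.9% and 15.6% at D8, D14 and D21, while its level was lower at D21 than at D14. A FOS UMI was found in 34.6%, 74.6% and 41.0% of CM-like cells (D8, D14 and D21), and unthinned in 66.2%, 91.0% and 64.6%. FOSB was found in 3.30%, 23.3% and 15.1%, and EGR1 in 25.6%, 56.2% and 39.4%. HSPA1A was found in 6.80%, 4.51% and 15.8% of CM-like cells. Over all kept cells 5 genes had their highest share at D14, 4 at D8 (ATF3, CYR61, CTGF and HSPA1A) and 1, JUN, at D21. No class of cells can be taken to lack these genes, so free RNA in the droplets has no measured floor here.

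Endothelial-like and dividing cells, the other classes present at all 3 days, also had their highest FOS and lowest HSPA1A at D14. In the 49, 53 and 37 endothelial-like cells of D8, D14 and D21 (7 markers met), FOS was at 142, 297 and 17.6 CPM, the last from 10 UMIs. FOSB was at 22.3, 40.5 and 1.76 CPM, from 19, 26 and 1 UMIs, a log2 ratio from D14 to D21 of -4.53 (-9.88 to -1.92). FOS (log2 ratio -4.08, -5.16 to -3.17), FOSB, JUNB (394 to 114 CPM) and EGR1 (99.7 to 28.1 CPM) were past 2-fold lower at D21, 4 genes beside 9.57% of 8938, and HSPA1A was past 2-fold higher, beside 11.3%. The D21 endothelial-like cells thus held the lowest FOS and FOSB of any group with 20 cells or more. From D8 to D14, FOS was past 2-fold higher in them (4.17% of 8725 genes) and HSPA1A lower, from 95.2 to 6.23 CPM (5.88% of all genes). Their HSPA1A levels rested on few counts, with 81, 4 and 14 UMIs at D8, D14 and D21. IER2, at 454, 487 and 272 CPM, and JUNB, at 410.1 CPM at D8, were higher in endothelial-like cells of D8 than in any other cluster of that day. The dividing cells (354, 463 and 177 cells) lay mainly in cluster 9 at D8, cluster 7 at D14 and cluster 13 at D21. Cluster 13 also met 6 cardiac fibroblast markers, so the kinds of cells that divided may differ between days. In dividing cells, FOSB was past 2-fold higher from D8 to D14 (18.4 to 71.9 CPM, 6.74% of genes) and HSPA1A lower (58.8 to 10.5 CPM, 2.02%). FOS was at 224, 395 and 156 CPM in them. FOS and FOSB (71.9 to 27.2 CPM) were past 2-fold lower at D21 than at D14, with 0 genes higher, beside 8.47% and 5.37% of all genes.

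Between clusters, the FOS group, the matricellular genes and HSPA1A were highest in different places. At D14, FOS was highest in 2 clusters that met 3 and 4 of the 8 cardiac fibroblast markers, at 594 CPM (cluster 2, 1006 cells) and 557 CPM (cluster 4, 537 cells), with CM-like cluster 1 at 489 CPM. JUNB was at 398 and 431 CPM in clusters 2 and 4 and IER2 at 387 and 410 CPM, against 217 and 246 CPM in cluster 1. The fibroblast-like clusters held more JUNB and IER2 than the CM-like cells of the same library. CYR61 and CTGF split these clusters, since CTGF was at 23.0 CPM in the first and 109 CPM in the other, and CYR61 at 62.6 and 177 CPM.

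CYR61 and CTGF were highest at D14 in the 206 cells of cluster 8. This cluster met 7 mesendoderm markers such as EPCAM and FOXA2 in its D8 cells and stayed unnamed, since genes of another class (TTR, APOA2 and APOA1) were among its leading genes. At D14, CYR61 was there at 359 CPM, 3.38-fold above the other cells of D14, and CTGF at 213 CPM, 2.96-fold above them. ATF3, at 68.2 CPM, was 2.57-fold above. FOS was lower in cluster 8, at 192 CPM. In the 258 D8 cells of this cluster, CYR61 (89.4 CPM) and CTGF (77.6 CPM) were below the other cells of D8, so the position of the cluster differed between the libraries.

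At D8, unnamed cluster 12 (226 cells), led by NMB, IL11, NDRG1, NPPB and metallothionein genes, held the highest ATF3, CYR61, JUN and CTGF of that day. ATF3 was at 137 CPM, 4.74-fold above the other cells of D8, and CYR61 at 386 CPM, 3.18-fold above them. JUN was at 323 CPM, 2.24-fold above, and CTGF at 155 CPM, 1.71-fold above. FOS, at 156 CPM, was not raised in this cluster, which had the highest ATF3, CYR61 and JUN of the 20 day-by-cluster groups with 50 cells or more. HSPA1A had its highest level in D8 cluster 11, at 107 CPM, an unnamed cluster led by SFRP2, POU5F1 and SOX2.

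At D21, CYR61 and CTGF were highest in fibroblast-like cluster 3 (811 cells, 8 of 8 markers), at 181 and 145 CPM, 2.92-fold and 2.87-fold above the other cells of D21. The share of thinned cells with a CTGF UMI was not highest there. It was 13.9%, against 15.5%, 17.2% and 18% in clusters 5, 15 and 16 and 9.12% and 7.80% in clusters 10 and 13. ATF3 was lower in cluster 3, at 15.1 CPM. Endoderm-like cluster 10 (307 cells, 8 of 8 markers) was the opposite, with CYR61 at 23.0 CPM, CTGF at 27.2 CPM, JUNB at 337 CPM and ATF3 at 50.5 CPM. Of the D21 classes, CM-like cells held HSPA1A at 2.71-fold above the other cells of the day, JUNB 2.94-fold below and IER2 2.36-fold below them.

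**Figure D3:**
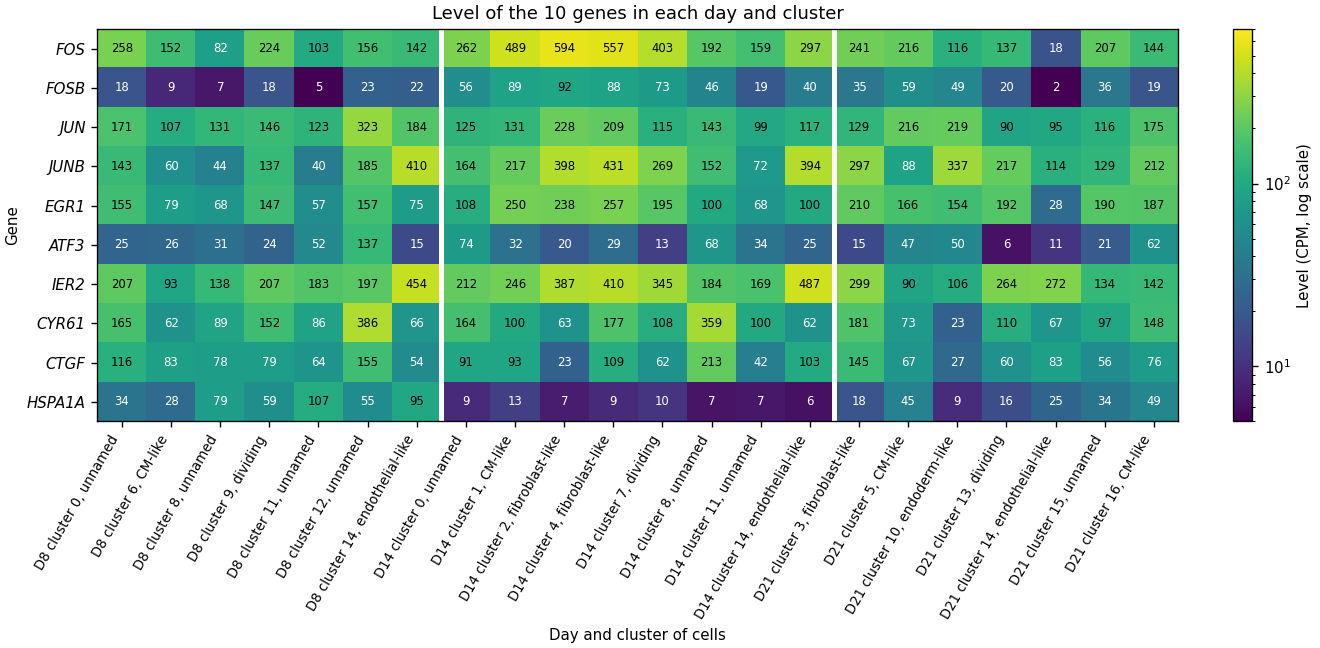
Level in CPM (colour, log scale, value printed in each cell) of the 10 genes in each day and cluster with 50 cells or more and in the endothelial-like cells of each day, with clusters named by their markers where a name was given. FOS is brightest in D14 clusters 2, 4 and 1 with 594, 557 and 489 CPM, ATF3 and CYR61 are brightest in D8 cluster 12 with 137 and 386 CPM, and HSPA1A is dark across D14.

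Over the 20 day-by-cluster groups with 50 cells or more, the profile of log2(CPM + 10) of FOS was compared with that of 5257 genes as a description, since groups share 3 libraries. The closest were DACT1 (Pearson r 0.90), C14orf132 (0.89), DOK4 (0.86), NRTN (0.85) and SOCS3 (0.84). FOSB came at rank 8 (0.82), IER2 at 0.68, EGR1 and JUNB at 0.65, JUN at 0.17 and HSPA1A at -0.56. For CYR61 the closest gene of all was CTGF (0.79), followed by C10orf118 (0.74), SH3RF1 (0.73), RNF146 (0.73) and IL11 (0.71), with ATF3 at 0.34 and FOS at 0.10. The YAP-target pair and the FOS group thus had different profiles over these groups.

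Within CM-like cells of a day, FOS, FOSB, JUN, JUNB, EGR1 and IER2 tended to be found in the same cells. The Spearman's rho of thinned counts over the 15 pairs of these 6 genes ranged from 0.11 to 0.33 at D8 (median 0.22), from 0.19 to 0.36 at D14 (0.28) and from 0.11 to 0.43 at D21 (0.24), over cells that share a library. At D21, a FOSB UMI was found in 30.5% of the 226 cells with a FOS UMI and in 4.31% of those without, and an EGR1 UMI in 61.5% and 24.0%. CYR61 and CTGF formed a pair of their own, with rho of 0.28, 0.30 and 0.18 at D8, D14 and D21. At D14, CTGF was found in 31.3% of the 256 cells with a CYR61 UMI and in 8.80% of the others, while FOS and CYR61 had a rho of 0.08. HSPA1A went with none of the other 9 genes, with rho from -0.05 to 0.11 at D8, -0.05 to 0.08 at D14 and -0.02 to 0.10 at D21. These are weak correlations in sparse counts and are given as a description.

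**Figure D4:**
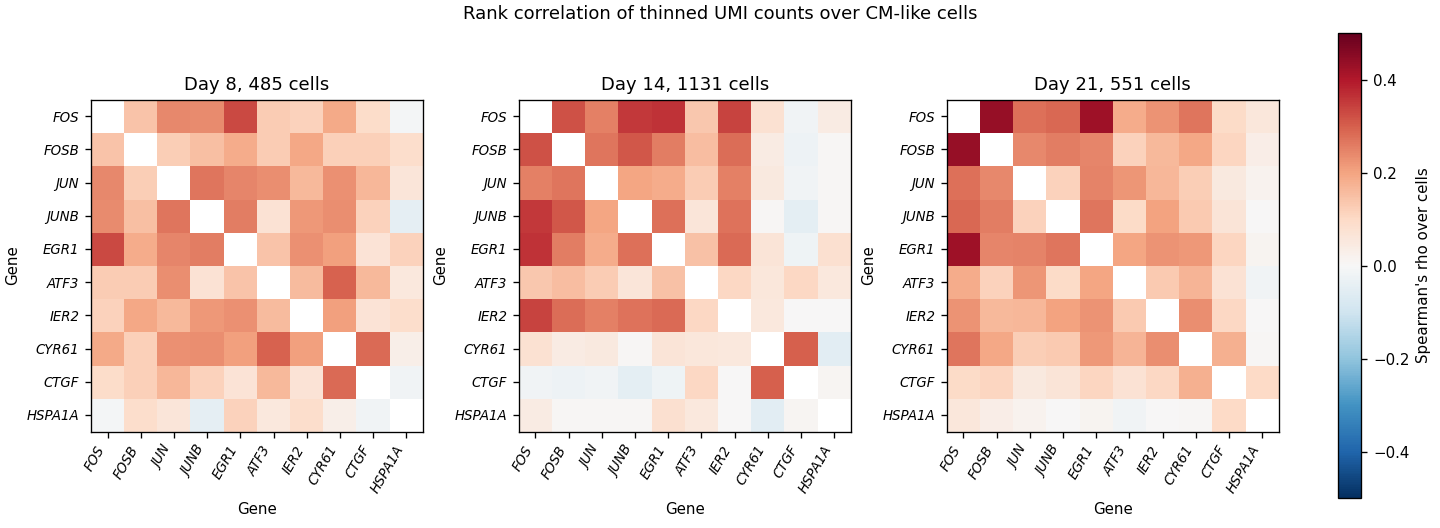
Spearman's rho (colour) of thinned UMI counts between each pair of the 10 genes over the 485, 1131 and 551 CM-like cells of D8, D14 and D21. The block of FOS, FOSB, JUN, JUNB, EGR1 and IER2 is positive at every day, CYR61 and CTGF form a separate positive pair, and HSPA1A stays near 0.

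The UMIs of some genes lay in few cells. In CM-like cells of D8, 1 of the 485 cells held 283 of the 643 CTGF UMIs (44.0%), and the CTGF level was 46.5 CPM without it, against 82.8 CPM with it. The CTGF ratio between D8 and D14 rests on this cell, since without it CTGF was 1.99-fold higher at D14 in CM-like cells (log2 ratio 0.99, 0.82 to 1.16) and, at 2% to 5% mitochondrial UMIs, under 2-fold lower (60.5 to 49.4, log2 ratio -0.29). The 10 cells with most ATF3 UMIs held 69.8% of them at D8. FOS at D14 was spread more evenly, since the tenth of CM-like cells with most thinned FOS UMIs held 32.3% of them.

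The lists set beside the 10 genes, chosen with earlier results of these data known, were read in CM-like cells, where 10.4% of all genes were past 2-fold higher and 2.22% lower from D8 to D14, and 5% higher and 14.8% lower from D14 to D21. Of 30 other immediate early genes, 21 were tested from D8 to D14, and 12 were past 2-fold higher and 0 lower, with a median log2 ratio of 1.21 against 0.05 for all genes. KLF2 went from 5.15 to 43.7 CPM, EGR3 from 4.25 to 28.3 CPM, EGR2 from 2.83 to 14.5 CPM and SOCS3, a cytokine signalling inhibitor, from 27.4 to 134 CPM. KLF2, EGR3 and EGR2 were under 10 CPM at D8. They were tested only through their D14 level, so they could be called only as higher. At the later step, 0 were past 2-fold higher and 10 of 21 lower, with a median of -0.79 against -0.18, led by SOCS3 (to 18.4 CPM) and by ZFP36, an mRNA decay factor, from 61.3 to 10.4 CPM.

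Of the 12 genes of the heat shock list, 0 were past 2-fold higher from D8 to D14, 5 were lower and 7 were neither, with a median log2 ratio of -0.80. HSP90AA1, a cytosolic chaperone, went from 1943 to 733 CPM, HSP90AB1 from 1816 to 720 CPM, HSPA1B from 46.0 to 14.6 CPM and the co-chaperone DNAJB1 from 60.2 to 26.1 CPM. Between D14 and D21, 3 of 12 were past 2-fold higher, namely HSPA8 (221 to 511 CPM), HSP90AA1 (to 1635 CPM) and BAG3 (36.0 to 72.4 CPM), and 0 lower. HSPA1B, whose coding sequence is nearly identical to that of HSPA1A, was not among them, at 14.6 and 17.0 CPM. As the counting could split reads between these 2 genes, the HSPA1A level is uncertain. Their sum, formed after the values were seen, went from 74.0 to 27.4 and 61.8 CPM in CM-like cells, 2.26-fold higher from D14 to D21, and the HSPA1A share of it from 37.8% to 46.6% and 72.5%.

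For ATF3, the integrated stress response list gave 3 of 9 tested genes past 2-fold higher from D8 to D14 (TRIB3, ASNS and VLDLR, with log2 ratios of 2.13, 1.74 and 1.56) and 1 lower, DDIT4 (585 to 270.0 CPM). At D21 against D14, 1 of 10 was past 2-fold higher, ATF5 (9.08 to 21.9 CPM), and 3 lower, with DDIT4 at 17.9 CPM. ATF3 itself was under 2-fold in both steps. For CYR61 and CTGF, the YAP-target list gave 3 of 15 tested genes past 2-fold higher from D8 to D14, namely RBMS3, TGFB2 and CCDC80, and 1 lower, IGFBP3. From D14 to D21, 5 of 13 were past 2-fold lower, led by MYOF (71.9 to 2.96 CPM), CCDC80 (108 to 20.2 CPM) and TGFB2 (146 to 35.5 CPM). ANKRD1, a muscle ankyrin-repeat protein and YAP target that is also a cardiomyocyte gene, was the 1 gene past 2-fold higher, from 224 to 489 CPM. Of the Hippo pathway genes, 0 of 11 were past 2-fold in either direction from D8 to D14, and 1 of 12, TEAD4 (7.21 to 21.4 CPM), was from D14 to D21. ATF5 and TEAD4 were under 10 CPM at D14 and were tested only through their D21 level. The other CCN family genes were all under the 10 CPM limit of the comparison.

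Over all kept cells, the shares of all genes past 2-fold were 8.95% higher and 1.63% lower from D8 to D14 and 5.8% and 10.1% from D14 to D21. Of the other immediate early genes, 8 of 25 were past 2-fold higher and 2 lower from D8 to D14, and 2 higher and 5 lower from D14 to D21. The heat shock list gave 0 higher and 5 lower of 12, then 0 either way. The YAP-target list gave 5 higher and 1 lower of 17, then 1 higher and 2 lower of 16. The integrated stress response list gave 2 higher and 1 lower of 10, then 0 higher and 2 lower.

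The mitochondrial share of a barcode, often read as a sign of cell stress or damage, was compared per 1000000 nuclear-encoded UMIs so that mitochondrial UMIs did not lower the other genes. At D21, barcodes at 10% to 20% (1656) were set against those under 5% (895), all with more than 2000 and fewer than 7500 genes. FOSB was higher at 10% to 20% (35.2 to 75.8) and HSPA1A too (17.9 to 43.9), 2 genes beside 16.5% of 9386. JUNB (292 to 139), IER2 (290.1 to 97.3), CYR61 (171 to 74.6) and CTGF (132 to 54.4) were past 2-fold lower, 4 genes beside 12.6%. At 20% to 40% (312 barcodes), FOSB (125), HSPA1A (52.5) and ATF3 (67.0) were past 2-fold higher than under 5%, beside 24.2% of 9667 genes, and JUNB and IER2 lower, beside 13.8%. The cell mix moved with these bands. Barcodes with at least 1% of nuclear-encoded UMIs from the 8 CM markers (the CM gate) made up 5.34% of those at 2% to 5%, 57.8% at 5% to 10%, 89.7% at 10% to 20% and 97.4% at 20% to 40%.

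Within the CM gate at D21, 0 of the 10 genes were past 2-fold either way between these bands (56 and 1486 barcodes), beside 4.74% and 7.71% of 9271 genes. FOSB was higher in the upper bands of the gate, with 54.9 UMIs per 1000000 nuclear-encoded UMIs at 2% to 5%, 56.5 at 5% to 10%, 79.1 at 10% to 20% and 121 at 20% to 40%. Between 5% to 10% (607 barcodes) and 20% to 40% (304 barcodes), FOSB had a log2 ratio of 1.10 (0.89 to 1.31) and was the 1 gene past 2-fold higher, with 0 lower, beside 3.61% and 1.48% of 9031 genes. EGR1 went from 181 to 293, FOS from 220 to 325 and ATF3 from 44.5 to 66.8 in the same comparison. JUN, JUNB, IER2, CTGF, HSPA1A and CYR61 had log2 ratios between -0.09 and 0.26 there, with a median of 0.18 over all genes. From under 5% to 5% to 10% in the gate, 0 of the 10 genes were past 2-fold either way, beside 1.8% and 5.82% of 9097 genes. The same held from 5% to 10% up to 10% to 20%, with 0 genes either way beside 0.0928% higher and 0.29% lower of 8617 genes. At 20% to 40%, the ratios of JUN and JUNB lay at -0.09 and -0.08 where those of FOS and FOSB lay at 0.56 and 1.10.

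At 40% and above, with no limit on genes, the 843 gated barcodes of D21 held a median of 1032 nuclear-encoded UMIs. The 2037 gated barcodes at 5% to 10% held a median of 1000. FOSB was at 205 at 40% and above, against 52.4 at 5% to 10%, and ATF3 at 124, against 45.3. These 2 genes were past 2-fold higher and 0 lower, beside 24.6% and 7.13% of 9503 genes. The part that low depth or the damage of these barcodes had in this was not tested.

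In the CM gate at D14, JUN, JUNB, FOSB and IER2 were lower in the upper bands. JUN was lower in each higher band, from 152 under 2% to 121, 85.5 and 52.6 at 10% to 20%, and JUNB from 219 to 196, 168 and 117. FOSB was at 87.2, 85.1, 57.4 and 44.2 and IER2 at 253, 242, 182 and 143. FOS did not follow this order, at 387, 463, 396 and 340.4. CTGF went the other way, at 56.6, 72.7, 145 and 103 in the same bands. Between under 5% (382 barcodes) and 10% to 20% (163), JUN was past 2-fold lower, with a log2 ratio of -1.28, and 0 genes were higher, beside 2.02% and 2.74% of 9389 genes. Between 5% to 10% (501) and 10% to 20% in the gate, 0 genes were past 2-fold either way, beside 0.409% higher and 0.452% lower of 9291 genes. Over all D14 barcodes, JUN, JUNB and IER2 were past 2-fold lower at 10% to 20% and 0 genes higher, beside 7.7% and 13.1% of 9794 genes.

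Outside the CM gate at D21, CYR61 was at 175 under 5% and 20.7 at 10% to 20% (839 and 170 barcodes) and CTGF at 138 and 29.7. With FOS and IER2, they were the 4 genes past 2-fold lower, with 0 higher, beside 27% and 13.6% of 9045 genes. The median depth of this set was 13692 UMIs at 2% to 5% and 19502 UMIs at 10% to 20%, and the cell mix moved with the bands. In the clustering with no mitochondrial limit, 646 barcodes at 2% to 5% were fibroblast-like and 35 endoderm-like, against 26 and 155 at 10% to 20%, gated barcodes included. Among fibroblast-like barcodes, CYR61 was at 194 and 224 and CTGF at 144 and 63.5 in these bands. Among endoderm-like barcodes, CYR61 was at 93.3 and 8.69 and CTGF at 67.3 and 27.0. CYR61 was thus lower in the upper band within the endoderm-like class and not within the fibroblast-like class. At D8, with bands of under 2%, 2% to 5% and 5% to 10%, JUN was at 191, 140.2 and 106, ATF3 at 43.3, 36.2 and 12.7, and HSPA1A at 72.6, 42.5 and 24.6.

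**Figure D5:**
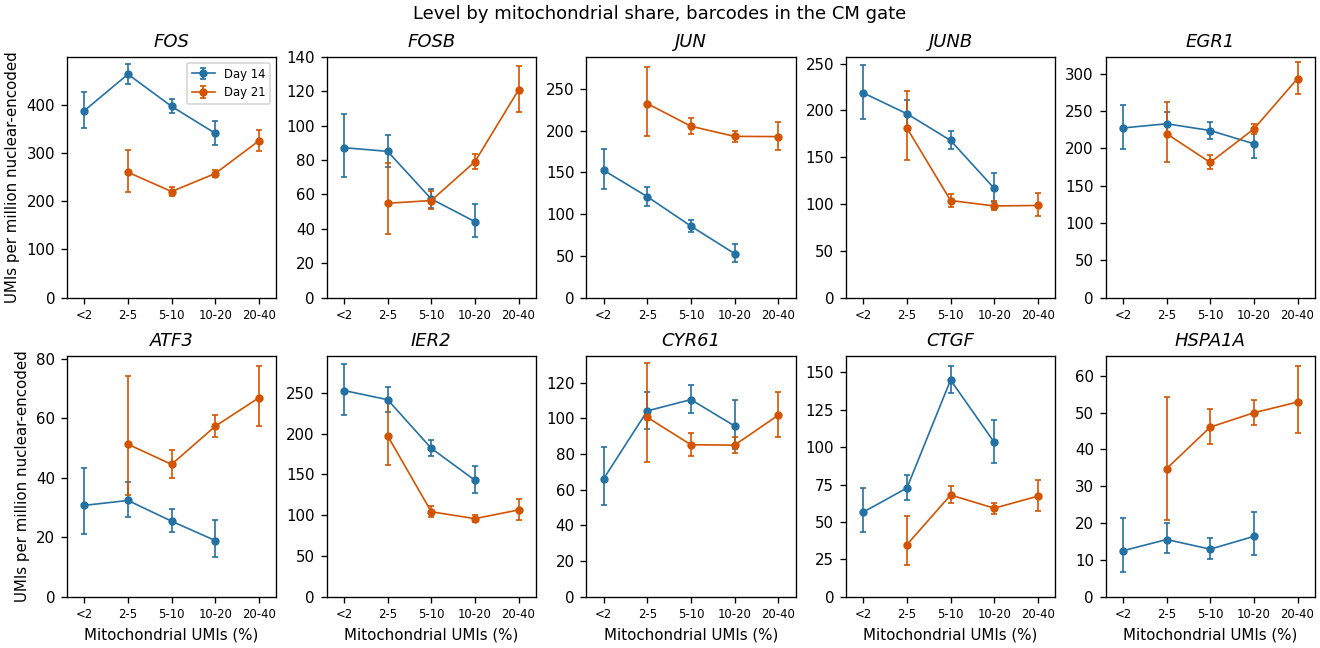
UMIs per 1000000 nuclear-encoded UMIs (vertical axis, from 0) of each gene by band of mitochondrial share in barcodes of the CM gate with more than 2000 and fewer than 7500 genes, at D14 (blue) and D21 (orange), with exact Poisson 95% intervals. At 10% to 20%, the highest band that both days share, FOSB is at 79.1 at D21 and 44.2 at D14 and JUN at D14 is at 52.6, while FOSB at D21 is at 121 at 20% to 40%, and HSPA1A is higher at D21 in every band that both days share.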

How the data were processed

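A merged table of UMI counts, which the authors deposited with neither normalization nor a filter on cells, was used and found to hold whole numbers. The submitters' processing notes name Cell Ranger, Seurat 3.2.1 and hg19, with no role. The end of each barcode name gave its day.

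The study's limits on cells were applied: over 2000 genes, below 7500 genes, and a share of UMIs from 13 mitochondrial genes under 10%. Seurat 5.3.0 in R 4.3.3 clustered all days together without integration (2000 variable genes, 20 components, resolution 0.8). Of the variable genes, 49 that were members, list genes or mitochondrial genes were left out. A class name required 3 or more of its markers to exceed the level in other cells of that day 2-fold, with 10 CPM added and a lead of 2 markers, unless another class led its 10 leading genes. The members, lists, markers and thresholds were chosen with earlier results of these data known. Of the endothelial markers, 7 of the 8 listed were in the table.

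UMIs were summed per day and class. Ratios use the exact interval of the split of the sums, and the 2-fold rule was read for genes that reached 10 CPM on either day, so members that passed through 1 day are included. All 10 members passed in all cells and CM-like cells. Genes named are the 10 members, up to 4 per list and step by size of fold, and the 5 closest to FOS and to CYR61. PECAM1 is not in the table used. Doublets were scored with Scrublet in scanpy 1.11.5 and kept. It marked 1, 5 and 67 cells (0.0376%, 0.139% and 3.44% of D8, D14 and D21), too few at D8 and D14 to take as working. Python 3.11.15, numpy 2.4.6, pandas 2.3.3, scipy 1.17.1, anndata 0.12.19 and matplotlib 3.10.9 were used, with Matrix 1.6.5, and edgeR 4.0.16 for TMM factors only. The ratios were tested on simulated data. Intervals cover counting error only. Alternatives were other limits on cells, clusterings, scalings, doublet removal, a CM gate and bands of mitochondrial share, the last chosen after seeing the data. Promoters came from RefSeq (GRCh38.p14) and no coordinates were taken from the files.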

Additional observations from a re-analysis of the deposited data

Results flagged for a closer look

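Several genes had ratios of opposite sign from D8 to D14 in different classes, each with an interval that excluded no change. The difference between classes was not tested, since each class is 1 library per day. In CM-like cells the ratios of these genes changed sign over 15 settings, which left out means of log-normalized values. They ranged from -0.36 to 0.64 for JUN and -0.30 to 1.40 for ATF3. The ranges were -0.19 to 1.30 for CYR61 and -1.44 to 1.65 for CTGF. JUN had a log2 ratio of 0.29 in CM-like cells, -0.66 in endothelial-like cells and -0.32 in dividing cells. ATF3 was at 0.28 in CM-like cells and -0.92 in dividing cells. CYR61 was at 0.68 in CM-like cells and -0.49 in dividing cells. CTGF was at 0.16 in CM-like cells, 0.93 in endothelial-like cells and -0.31 in dividing cells, and without the 1 cell that held 44.0% of the CTGF UMIs of D8 CM-like cells its D8 level there was 46.5 CPM in place of 82.8 CPM.

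In barcodes of the CM gate, the step from 5% to 10% up to 10% to 20% mitochondrial UMIs went in opposite directions at D14 and D21 for 2 genes. FOS had a log2 ratio of -0.22 at D14 and 0.23 at D21, and FOSB of -0.38 at D14 and 0.49 at D21. The difference between the days was not tested.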

How the results depend on the processing

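No paired analysis was possible because each day has 1 library and no replicate numbers. Of the main counts recomputed under the alternatives, 126 stayed within 1.5 times their value and 49 did not, and the cause was not tested. Counts of 0 that stayed 0 are among the 126, and comparisons of other bands or days are among the alternatives. The tally is thus no measure of how firm the results are. Shares of all genes past 2-fold the same way are in parentheses. Differences of mean log-normalized values are not ratios of levels, and few of all genes reached the 2-fold limit with them. For D8 to D14 over all cells, they left 0 of the 10 genes past 2-fold higher (0.264%) or lower (0.0549%). For D14 to D21 over all cells, the genes higher were 0 with a 5% mitochondrial limit (5.78%) and with log-normalized means (0.321%). Those lower were 2 with limits of 5% (10.7%) and 20% (11%) or with none (11.3%) and 0 with median-of-ratios scaling (6.04%). For D8 to D14 in CM-like cells, the genes higher were 2 with no mitochondrial limit (12.7%), 1 with log-normalized means (0.43%) and 8 with all variable genes kept (10.6%). Those lower were 0 with log-normalized means (0.143%) and 2 at 2% to 5% mitochondrial UMIs (2.31%). For D14 to D21 in CM-like cells, the genes higher were 0 with log-normalized means (0.591%), 2 at resolution 1.2 (4.74%) and 2 at 5% to 10% mitochondrial UMIs (4.97%). Those lower were 1 with median-of-ratios (10%), TMM (10.7%), log-normalized means (0.558%), resolution 1.2 (13.6%) or that band (13.9%) and 0 in the CM gate (11.8%). A 5% limit left 2 CM-like cells at D21 and was not run for that class.

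For the D21 bands of mitochondrial share, the genes higher were 1 per total UMIs (13.2% of all genes). They were 0 in the CM gate (4.74%), outside it (13.6%), at D14 (13.1%) and in the D14 gate (2.74%). The genes lower were 0 in the CM gate (7.71%), 2 with the band of 20% to 40% (13.8%) and 1 in the D14 gate (2.02%). From 5% to 10% up, the gate gave 1 higher (3.61%) and 0 lower (1.48%) at 20% to 40%, and 0 lower (7.13%) at 40% and above. At 10% to 20% it gave 0 higher or lower on D14 (0.409% and 0.452%) and D21 (0.0928% and 0.29%). A log2 ratio is called reversed here where its sign opposed the main D21 comparison, even on another day or between other bands. Reversed log2 ratios were those of CTGF in the CM gate (0.76), JUNB and HSPA1A outside it (0.25 and -0.48), FOSB and CTGF at D14 (-0.91 and 0.52) and in its gate (-0.95 and 0.58), IER2 and CYR61 in the D21 gate at 20% to 40% (0.031 and 0.26), CYR61 and CTGF at 40% and above (0.98 and 0.75) and FOSB in the D14 gate above 5% to 10% (-0.38). With cells thinned to 2000 UMIs, 0 genes had their highest share at D21. With no filter on low genes, the CCN family gave 1 higher in each step over all cells and 1 lower in each in CM-like cells. The YAP-target list then gave 2 higher from D14 to D21 over all cells, and in CM-like cells 5 higher and 2 lower, then 2 higher and 10 lower. Other immediate early genes gave 1 lower and the integrated stress response list 6 higher from D8 to D14 in CM-like cells. Depth limits the endothelial-like class most, where FOSB rests on 1 UMI at D21.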
